A study of Xenopus laevis with 31 samples.

Results

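The comparison asked which transcripts of the Xenopus laevis gastrula depend on the homeodomain factor Mixer. It set 2 arrays of embryos injected with an antisense Mixer morpholino (Mixer-MO) against 9 arrays of control embryos, all whole embryos at stage 11. These are 11 of the 31 arrays of the series, and the spread for the test was estimated over all 31. The 11 were taken by the condition named in the labels. Of 15611 probe sets on the array, 15443 were tested, after 120 control probe sets and 48 whose values could not be read with certainty were set aside. Among those tested are 20 whose level was open in every array and which were kept as written. Mixer-MO embryos were injected vegetally at the 2-cell stage with 40 ng of morpholino, by the protocol, while the title of one of the samples, replicate 1, states a dose of 32 ng. Of the other groups drawn on below, Cerberus-Short embryos (n = 3) received 1 ng of RNA and Sox17-MO embryos (n = 3) received 3 morpholinos at 20 ng each, by the same route. Vegetal (n = 2), equatorial (n = 2) and animal cap explants (n = 3), eggs (n = 3) and stage 18 embryos (n = 4) show where and when a transcript is present. The title of control replicate 8 marks its embryos as uninjected, and for the other controls the labels name no injection. A control morpholino is not named either. Whether a difference comes from being injected or from the Mixer morpholino is thus left undecided. Each sample pooled about 20 sibling embryos of a single mating, or about 50 explants, and which of them came from one mating is not stated. Values are intensities on a linear scale, as the authors normalized them, and differences are on the log2 scale, where 1 is a 2-fold difference.

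Nodal ligands, secreted by vegetal cells of the blastula, induce mesoderm and endoderm through Smad2, and the Mix-family homeodomain proteins are among the factors they switch on. Mixer is one of these. It is expressed in the prospective endoderm, can bring activated Smad2 to target promoters, and is known from frog embryos both to promote endodermal genes such as Sox17 and to restrain mesodermal ones. Cerberus-Short is a secreted protein that binds and blocks nodal ligands, and Sox17 is an HMG-box factor of the endoderm. A morpholino acts on translation or splicing of its target, so the level of the Mixer transcript would not by itself show depletion. It was not looked up, because the gene table used here holds 0 of the probe set identifiers. For the same reason gene names and marker genes were not used, and transcripts are given by probe set identifier and by their own levels in the tissues and stages of the series.

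The 2 Mixer-MO arrays differed more from each other than from one control each. The title of Mixer-MO replicate 2 carries the letter J, as does that of control replicate 7. No letter stands in the title of Mixer-MO replicate 1 or of control replicate 8, and every other title of the 2 groups has one. Deviations from the control mean over the 15443 probe sets correlated at r = 0.907 between the J arrays, and at r = 0.462 to -0.588 between Mixer-MO replicate 2 and the other 8 controls. Between the arrays without a letter r was 0.669, and between Mixer-MO replicate 1 and the other 8 controls 0.257 to -0.480. Between Mixer-MO replicates 1 and 2 it was 0.177. All these deviations share the control mean. The log2 difference between 3' and 5' probe sets of beta-actin, a measure of RNA integrity, was -2.68 in Mixer-MO replicate 1 and 1.49 in Mixer-MO replicate 2, against a lowest, median and highest control value of -3.71, -2.74 and 0.90. The highest of these controls was the J array. Results are therefore given for all arrays and within the J pair and the pair without a letter, called the no-letter pair. The labels do not state that either pair shared a mating or a batch. By its titles, the no-letter pair sets injected embryos against uninjected ones. Median intensities ran from 66.6 to 76.0 over the 11 arrays.

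Few transcripts separated Mixer-MO from control gastrulae at the threshold. Of 15443 probe sets 5 were called (0.0324%; limma, Benjamini-Hochberg adjusted p under 0.05), 3 of them higher (0.0194%) and 2 lower (0.013%) in Mixer-MO embryos. At an unadjusted p under 0.05 there were 796 higher (5.15%) and 454 lower (2.94%). The 2 that fell were transcripts lower in the egg than in stage 11 controls. Of the 3 that rose, 2 were highest in the egg among the stages measured, and the other was concentrated in the vegetal endoderm. For all 5, both Mixer-MO arrays lay outside the range of the 9 controls, as they did for 421 probe sets on the high side (2.73% of those tested) and 369 on the low side (2.39%). Leaving out Mixer-MO replicate 1 gave 0 calls, leaving out replicate 2 gave 2, and leaving out control replicate 7 gave 20, while the 11 arrays alone gave 0. After quantile normalization it was 1 higher and 4 lower, with Xl.7749.1.A1_at and Xl.7751.1.S1_at no longer called and Xl.3534.1.A1_at and Xl.8310.1.S1_at called. With a pseudocount of 16 there were 8 higher and 2 lower. In pools of whole embryos, fewer cells of a type and less RNA per cell cannot be told apart.

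The largest fall among the calls was in Xl.6024.1.S1_at, a transcript of the vegetal endoderm. Its intensity was 14.3 and 35.6 in Mixer-MO replicates 1 and 2, against a lowest, median and highest value of 78.4, 128.5 and 261 in the controls. Both Mixer-MO arrays stood below every control, a 5.77-fold fall (log2 difference -2.53 ± 0.39, SE; adjusted p = 0.00497). The lower of these intensities lies at percentile 16.9 of its array, and no background level was read for it, so the size of the fall is less certain than its direction. The difference was -2.13 in the J pair and -2.93 in the no-letter pair. At stage 11 the probe set read 376 and 612 in vegetal explants, 19.2 and 22.4 in equatorial explants and 9.41 to 13.9 in animal caps, so that its signal in the gastrula was vegetal. It was low in the egg, at 11.8 to 15.3, and reached 462 to 1233 at stage 18.

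The same transcript was read in Cerberus-Short and Sox17-MO embryos. It read 10.9, 11.0 and 24.9 in the 3 Cerberus-Short arrays, a range that overlaps that of the Mixer-MO arrays, and 66.3 to 122 in the Sox17-MO arrays. Mixer-MO embryos were lower than Sox17-MO embryos by a log2 difference of -2.04 ± 0.45 (SE; adjusted p = 0.0309). No probe set was called lower than in Sox17-MO embryos when either Mixer-MO array was left out, so this call rests on both. Between Mixer-MO and Cerberus-Short embryos the difference was 0.65 ± 0.45 (SE; adjusted p = 0.681), which does not show that the 2 treatments act alike.

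Xl.1627.1.A1_at fell by less but more evenly. It read 105 and 114 in the Mixer-MO arrays, against a lowest, median and highest control value of 225, 260 and 304. Both Mixer-MO arrays lay below every control and just above the eggs, which read 74.8 to 98.9. The fall was 2.38-fold (log2 difference -1.25 ± 0.19, SE; adjusted p = 0.00497), at -1.19 in the J pair and -1.30 in the no-letter pair. This transcript showed no call between vegetal and cap explants (log2 difference 0.49 ± 0.22, SE; adjusted p = 0.140). Cerberus-Short arrays read 174 to 313 and Mixer-MO embryos were lower than these by a log2 difference of -1.22 ± 0.22 (SE; adjusted p = 0.00919). The difference from Sox17-MO embryos, which read 171 to 206, was -0.78 ± 0.22 (SE; adjusted p = 0.0887). Without either Mixer-MO array the adjusted p of Xl.1627.1.A1_at passed 0.05, at 0.270 without replicate 1 and 0.100 without replicate 2, while Xl.6024.1.S1_at lost its call without replicate 1 (adjusted p = 0.340).

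**Figure D1:**
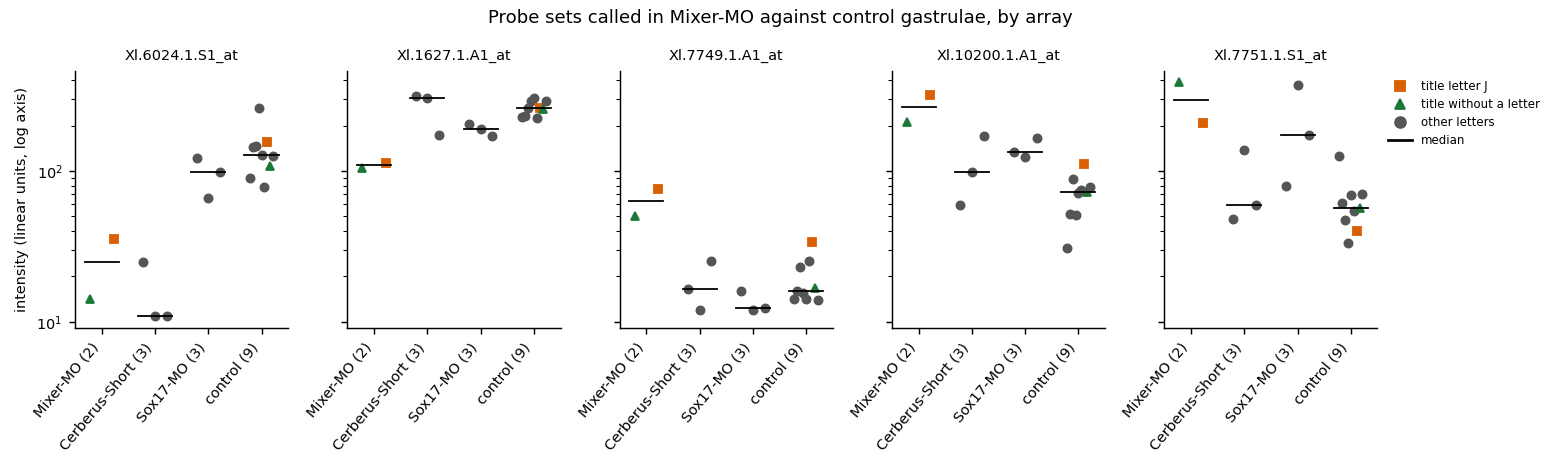
Intensity of the 5 called probe sets in each array of Mixer-MO, Cerberus-Short, Sox17-MO and control gastrulae, on a log axis, with the number of arrays in brackets. Squares are arrays with title letter J, triangles those without a letter, circles the others, and bars medians. In each panel both Mixer-MO points lie outside the range of the 9 controls, and for Xl.6024.1.S1_at the Cerberus-Short points are as low as the Mixer-MO points.

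Of the transcripts that rose, Xl.10200.1.A1_at and Xl.7749.1.A1_at were highest in the egg among the stages measured. Xl.10200.1.A1_at read 211 and 319 in the Mixer-MO arrays, against a lowest, median and highest control value of 30.7, 72.5 and 111. The highest control was the J array, and the groups do not overlap. Cerberus-Short arrays read 59.7 to 171, and Sox17-MO arrays read 124 to 164, all above the highest control. Mixer-MO embryos were called higher than neither, with log2 differences of 1.37 ± 0.39 and 0.89 ± 0.39 (SE; adjusted p = 0.274 and 0.315). Against the controls the rise was 3.92-fold (log2 difference 1.97 ± 0.33, SE; adjusted p = 0.0166), with 1.52 in the J pair and 1.54 in the no-letter pair. With the title letter as a block and the titles without a letter joined, which follows these pairs, the call was lost (log2 difference 1.53, adjusted p = 0.261). In eggs it read 431 to 553, more than in any stage 11 array, and at stage 18 it read 243 to 364. Without Mixer-MO replicate 1 the adjusted p was 0.204 and without replicate 2 it was 0.497.

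Xl.7749.1.A1_at read 50.6 and 76.1 in the Mixer-MO arrays, against 13.9, 16.0 and 33.6 as lowest, median and highest control value, the highest again in the J array. The rise was 3.39-fold (log2 difference 1.76 ± 0.31, SE; adjusted p = 0.0190), with 1.18 in the J pair and 1.59 in the no-letter pair. With a pseudocount of 16 the log2 difference was 1.18. No background level was read, so the size of the rise is less certain than its direction. In eggs the probe set read 77.7 to 107, and at stage 18 it was back at 14.9 to 25.9. Neither of the other interventions showed such a level. Cerberus-Short arrays read 12.0 to 25.4 and Sox17-MO arrays 12.0 to 16.1, and Mixer-MO embryos were higher than these by log2 differences of 1.85 ± 0.36 (SE; adjusted p = 0.0177) and 2.22 ± 0.36 (SE; adjusted p = 0.00464). The call against controls was lost with quantile normalization (adjusted p = 0.0912) and without either Mixer-MO array (adjusted p = 0.204 without replicate 1 and 0.540 without replicate 2).

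Xl.7751.1.S1_at, the third that rose, is a gastrula transcript of the vegetal region. It read 387 and 207 in the Mixer-MO arrays, against 33.4, 56.5 and 125 as lowest, median and highest control value, with no overlap. The rise was 4.88-fold (log2 difference 2.29 ± 0.43, SE; adjusted p = 0.0499), with 2.37 in the J pair and 2.78 in the no-letter pair. Its adjusted p lies just inside the threshold, and the call was lost in 16 of 24 alternatives, among them quantile normalization and median centring. The title letter as a fixed block also lost it, where the J pair alone bears on the contrast. With the titles without a letter joined, that block kept the call (limma, log2 difference 2.57, adjusted p = 0.00424). So did the letter as a random block (log2 difference 2.37, adjusted p = 0.00355). Without Mixer-MO replicate 1 the adjusted p was 0.340 and without replicate 2 it was 0.139. The control replicates whose removal ended it were 2, 3, 4, 5, 6, 8 and 9, with adjusted p from 0.0549 to 0.0811. In vegetal explants it read 110 and 211, in equatorial explants 23.2 and 33.9 and in animal caps 25.5 to 32.1. Eggs and stage 18 embryos were both low, at 19.7 to 20.1 and 17.4 to 30.7. Sox17-MO arrays read 80.0, 173 and 372, which overlaps the Mixer-MO range, and the difference of Mixer-MO from Sox17-MO embryos was 0.71 ± 0.51 (SE; adjusted p = 0.576). Sox17-MO embryos were also called higher than the same controls, by a log2 difference of 1.58 (limma, adjusted p = 0.0329). The 2 called members of the vegetal region, Xl.6024.1.S1_at and Xl.7751.1.S1_at, therefore moved in opposite directions.

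**Figure D2:**
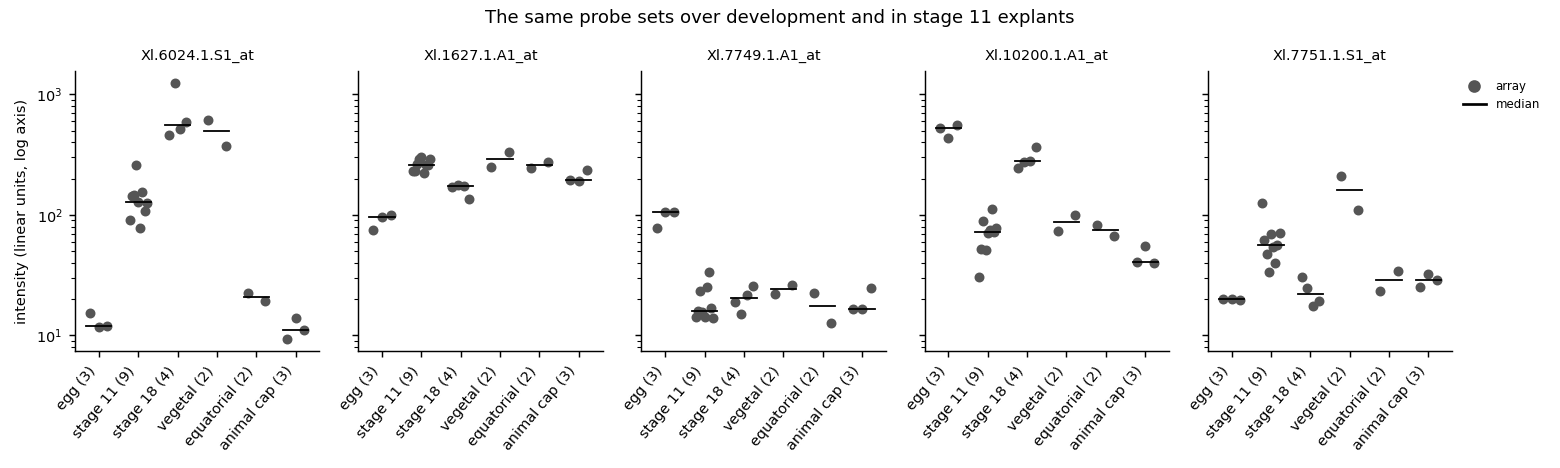
The same 5 probe sets in eggs, stage 11 and stage 18 whole embryos, and in vegetal, equatorial and animal cap explants, as intensity per array on a log axis with bars at the median. Xl.6024.1.S1_at and Xl.7751.1.S1_at are highest in vegetal among the explants, and Xl.7749.1.A1_at and Xl.10200.1.A1_at are highest in the egg.

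The 10 highest-ranked probe sets with both Mixer-MO arrays above all controls, and the 10 below all controls, were read as a group that includes the 5 called. They were ranked by unadjusted p, so their differences are given as a description. The log2 differences ran from 0.82 to 2.29 on the high side and from -2.53 to -1.01 on the low side, with adjusted p up to 0.184. The controls of both pairs are among the 9, so the choice fixes the sign in the pairs. The size in the pairs varied, from 0.44 to 2.37 in the J pair and from 0.83 to 2.78 in the no-letter pair on the high side. On the low side the sizes ran from 0.08 to 2.13 and from 1.07 to 2.93. The set of 993 probe sets at least 2-fold higher in vegetal than in cap explants (limma, adjusted p under 0.05; 6.43% of those tested) held 3 of the 10 high ones and 4 of the 10 low ones. The set of 1025 at least 2-fold lower in vegetal explants (6.64%) held 0 and 2. These 2 sets are called the vegetal and the cap set.

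Among the low ones, Xl.3534.1.A1_at had the profile of Xl.6024.1.S1_at. It read 44.3 and 114 in Mixer-MO embryos, against 191, 312 and 715 as lowest, median and highest control value, a log2 difference of -2.12 ± 0.44 (SE; adjusted p = 0.0668). It passed the threshold after quantile normalization and with array weights. Its vegetal minus cap difference was 5.84 and its equatorial minus cap difference 0.95. Its difference from the controls was -2.57 with Cerberus-Short and -0.93 with Sox17-MO, which share those controls. Xl.14404.1.A1_at, also of the vegetal set, read 26.3 and 23.8 in Mixer-MO embryos, against 41.1, 56.6 and 87.5, and had an adjusted p of 0.0508. It passed in 4 of 23 alternatives. Within the cap set the smallest p belonged to Xl.13110.1.A1_at, at 21.5 and 28.4 in Mixer-MO embryos, against 61.8, 99.6 and 225, with an adjusted p of 0.0764. In direct tests it was lower than in Cerberus-Short embryos by -2.38 ± 0.50 (SE; adjusted p = 0.0358) and lower than in Sox17-MO embryos by -2.28 ± 0.50 (SE; adjusted p = 0.0303).

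Among the high ones, Xl.373.1.S1_at was the brightest and differed from nodal block in sign. It read 1548 and 1609 in Mixer-MO embryos, against 214, 375 and 873 in the controls, where the highest was the J array. The log2 difference was 1.87 ± 0.43 (SE) and missed the threshold (adjusted p = 0.169), which it passed without that J control (adjusted p = 0.0427). Within the pairs the difference was smaller, at 0.88 in the J pair and 1.37 in the no-letter pair. This probe set belongs to the vegetal set, with a vegetal minus cap difference of 4.39, and was also at least 2-fold higher in equatorial than in cap explants. With Cerberus-Short its difference from the controls was -1.88. Mixer-MO embryos were higher than Cerberus-Short embryos by 3.76 ± 0.51 (SE; adjusted p = 0.000894). Xl.13297.1.S1_at, with no vegetal or cap bias, read 123 and 88.9 in Mixer-MO embryos, against 21.4, 29.6 and 44.2 (adjusted p = 0.0508), and passed in 5 of 23 alternatives. It was higher in Mixer-MO than in Cerberus-Short embryos by 2.11 ± 0.41 (SE; adjusted p = 0.0170) and than in Sox17-MO embryos by 1.68 ± 0.41 (SE; adjusted p = 0.0466).

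In the direct tests over these 20, Mixer-MO embryos were higher than Cerberus-Short embryos for 4 of the 10 high ones (0.181% of all probe sets were) and lower for 2 of the 10 low ones (0.0259%). Against Sox17-MO embryos the counts were 5 (0.641%) and 4 (0.123%). Over all probe sets the Mixer-MO against Sox17-MO comparison had 118 calls, with 8 without Mixer-MO replicate 1, 0 without replicate 2 and 0 on the arrays of the 2 groups alone. Leaving out Sox17-MO replicate 1 gave 184, replicate 2 gave 23 and replicate 3 gave 19. The 20 were chosen for their Mixer-MO values, which enter these tests, so the counts are a description. Title letters of Mixer-MO arrays are not shared by Cerberus-Short or Sox17-MO arrays, and with that letter in the model as a fixed term neither direct comparison called any of the 15443 probe sets.

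**Figure D3:**
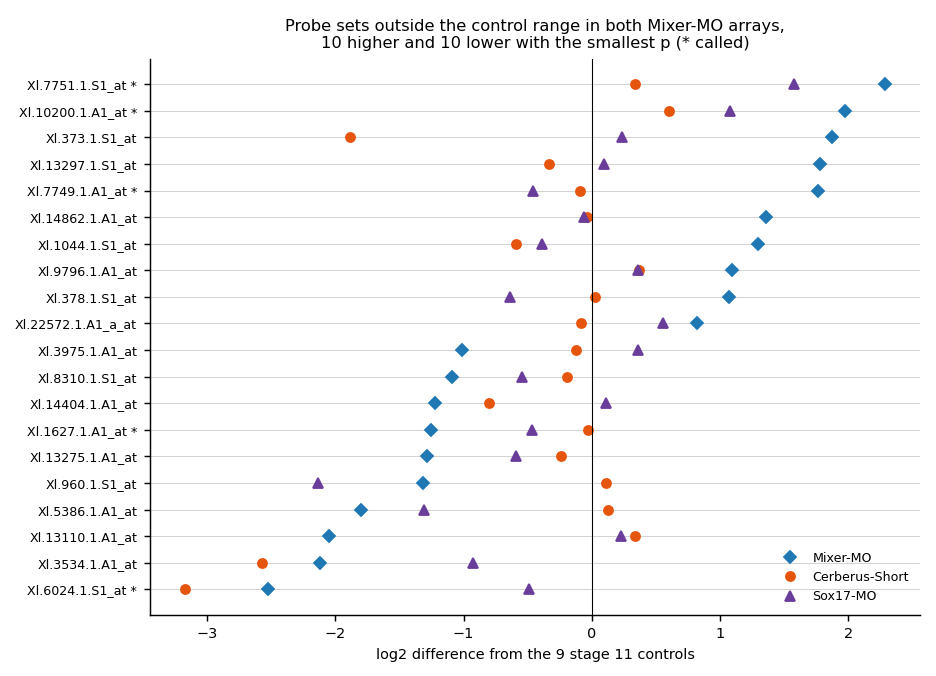
Log2 difference from the 9 stage 11 controls with Mixer-MO (diamonds), Cerberus-Short (circles) and Sox17-MO (triangles) for the 20 probe sets outside the control range in both Mixer-MO arrays with the smallest p. Stars mark the 5 called with Mixer-MO, and all 3 differences share the same controls. Xl.373.1.S1_at is at 1.87 with Mixer-MO and at -1.88 with Cerberus-Short, and Xl.6024.1.S1_at at -2.53 and -3.17.

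Within the title pairs, probe sets at least 2-fold lower in Mixer-MO embryos in both pairs had less signal in eggs than in controls outside the pairs. They were a small part of the probe sets at least 2-fold lower in eggs. The 2 pair differences have no array in common, and across probe sets they correlated at r = 0.520 (n = 15443 probe sets, which are not independent replicates). Of all probe sets 49 were at least 2-fold lower in both pairs (0.317%), 10 were at least 2-fold higher in both (0.0648%) and 0 were 2-fold apart in opposite directions. Each pair is 1 array against 1 array, so these counts rest on no test. They were 24 lower and 5 higher with a pseudocount of 16, and 34 lower and 10 higher after quantile normalization. All 5 called probe sets are among these. The no-letter pair gave more differences than the J pair, with 272 lower (1.76%) and 47 higher (0.304%), against 67 lower (0.434%) and 26 higher (0.168%).

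Egg levels were read against the 7 controls that are in neither pair, so that no array served both sides. All 49 of the lower probe sets had less signal in eggs than in these controls, as did 46.8% of all probe sets. Their median egg minus control difference was -2.82, against 0.03 over all probe sets. At least 2-fold lower in eggs, with an adjusted p under 0.05, were 43 of the 49 (87.8%), in a set that makes up 10.4% of the array. They are 2.68% of that set. Of the 10 higher probe sets, 6 were at least 2-fold higher in eggs, a set that makes up 11.6%, and 3 were at least 2-fold lower. The 1602 probe sets lower in eggs had a median difference of -0.14 in the J pair and -0.21 in the no-letter pair. For the 1796 higher in eggs the medians were 0.13 and 0.17, and over all probe sets both were 0.03. Thus, by median, probe sets lower in eggs lay slightly lower in Mixer-MO embryos and those higher in eggs slightly higher, in both pairs. By the same threshold, 21 of the 49 (42.9%) were higher at stage 18 than in the 7 controls, a set that makes up 12.1% of the array. Lower at stage 18 were 2 (4.08%), from a set of 13.3%. Probe sets higher at stage 18 had medians of -0.05 in the J pair and -0.10 in the no-letter pair. For those lower at stage 18 the medians were 0.06 and 0.14. Whether Mixer-MO embryos and their controls were collected at the same age was not tested.

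**Figure D4:**
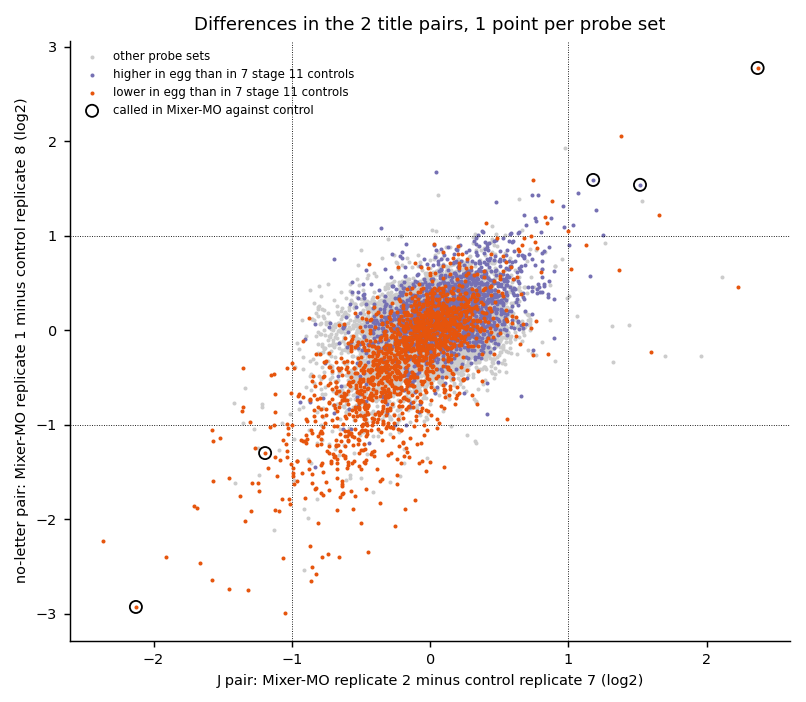
Log2 difference of Mixer-MO replicate 2 from control replicate 7 (J pair, x axis) and of Mixer-MO replicate 1 from control replicate 8 (no-letter pair, y axis), with 1 point per probe set. Colours give probe sets at least 2-fold lower or higher in eggs than in the 7 other controls, circles the 5 called probe sets, and dotted lines a 2-fold difference. The 49 probe sets at least 2-fold lower in both pairs lie in the lower left corner, and 43 of them are lower in eggs.

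By tissue, the 49, which are 0.317% of all probe sets, included members of each explant class. The vegetal set, 6.43% of those tested, held 15 (30.6% of the 49 and 1.51% of the set). The cap set, 6.64% of those tested, held 4 (8.16% of the 49 and 0.390% of the set), near the share over all probe sets. Of the 103 probe sets at least 2-fold higher in equatorial than in cap explants, 7 were lower in both pairs (6.80%). The vegetal set holds 82 of these 103, and 4 of the 7 are among its 15. Of the 371 at least 2-fold higher in equatorial than in vegetal explants, 5 were lower in both pairs (1.35%). The median of the 103 was -0.10 in the J pair and -0.39 in the no-letter pair. In the fit with all arrays it was -0.09 with Mixer-MO, against -0.63 with Cerberus-Short and -0.48 with Sox17-MO, which share the controls. At this class the calls in Mixer-MO against control were 0 in either direction, with 7 of 103 above and 11 below every control (6.80% and 10.7%, against 2.73% and 2.39% of all probe sets).

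The shifts in the medians of the vegetal and cap sets in Mixer-MO embryos rested on 1 array. With all arrays the vegetal set had a median difference from the controls of 0.31 and the cap set one of -0.40, against -0.01 for all probe sets. Of the vegetal set 78 members were above every control (7.85%) and 37 below (3.73%), and of the cap set 4 were above (0.390%) and 78 below (7.61%). Over all probe sets these shares were 2.73% above and 2.39% below. Unlike the medians, these counts need both Mixer-MO arrays outside the control range. The vegetal median was 0.07 in Mixer-MO replicate 1 and 0.54 in Mixer-MO replicate 2. In the controls the lowest, median and highest values were -0.23, -0.004 and 0.41, the highest in the J array. The cap median was 0.02 in Mixer-MO replicate 1 and -0.73 in Mixer-MO replicate 2, against -0.45, 0.06 and 0.25 in the controls, the lowest in the J array. Mixer-MO replicate 2 thus stood beyond every control in both sets, and replicate 1 within their range. Within the J pair the medians were 0.14 and -0.19, and within the no-letter pair 0.09 and -0.06. The 3' to 5' differences of beta-actin and Gapdh were high on both J arrays, and their part in these medians was not tested.

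**Figure D5:**
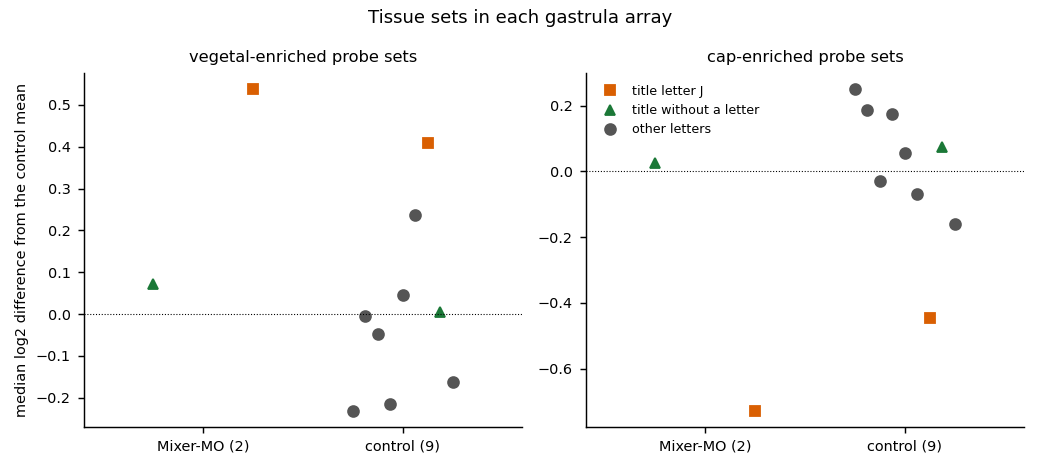
Median log2 difference from the control mean over the 993 probe sets of the vegetal set (left) and the 1025 of the cap set (right), with 1 point per array of Mixer-MO and control gastrulae. Squares are arrays with title letter J, triangles those without a letter and circles the others. Mixer-MO replicate 2, at 0.54 and -0.73, lies beside the J control at 0.41 and -0.45.

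The Mixer morpholino and Cerberus-Short were compared directly, since Mixer lies downstream of nodal ligands. Mixer-MO embryos were higher than Cerberus-Short embryos for 28 probe sets (0.181%) and lower for 4 (0.0259%). Of the 28, 23 belong to the vegetal set (82.1% of the 28 and 2.32% of the set) and 13 are also at least 2-fold higher in equatorial than in cap explants (15.9% of the 82 such members). Over the 28 the median difference from the controls was 0.88 with Mixer-MO and -1.50 with Cerberus-Short, a gap that the choice of the 28 builds in, with the controls shared. Without Cerberus-Short replicate 3 there were 171 calls, 77 higher and 94 lower, so the excess of higher calls was not kept. Most calls were lost when either Mixer-MO array was left out, which leaves a single array in that group. With the letter of the titles as a fixed term there were 0 calls.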

How the data were processed

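Samples of 10 µg total RNA were run on Affymetrix arrays for Xenopus, as the labels' protocols state. GeneChip Operating Software 1v4 scaled arrays to a target of 1500 and GeneSpring 7.1 applied RMA, per the deposited checklist and the submitters' processing notes. The authors deposited 1 intensity, on a linear scale, for each probe set of each array. Intensities of 1000 or more are written divided by 1000 in the deposited table, where none exceeds 999.9, and were restored. Size and written form settled 90.5% of values, and 45181 were assigned to the nearest level in their row. Of 5101 settled values that were hidden, 5095 were recovered. The 48 probe sets left out had an assigned value for which both readings were within 2 log2 units of being equally near. In 20 others no value of the row was settled, and these were kept as written.

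The test was two-sided, on log2 intensities, by lmFit and eBayes (limma 3.58.1, R 4.3.3). It used all 31 arrays with a mean for each group, 22 residual degrees of freedom, and Benjamini-Hochberg adjustment over 15443 probe sets. The fit was tested on simulated data with independent noise in each array, so likeness between arrays that share a title letter was not covered. The number of arrays limits the precision, and p-values reflect only how these samples spread, which may be technical. Named probe sets are those called, the 10 higher and 10 lower with the smallest p among those outside the control range, and the 3 per direction with the smallest p in the vegetal and cap sets. Members and lists were chosen with earlier results of these data known. Gene lists were not used because no identifier matched a gene. Same-numbered replicates did not pair the arrays: their deviations correlated at -0.117 and -0.266. Alternatives covered scaling, filters, weights, blocks and omitted arrays.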

Additional observations from a re-analysis of the deposited data

Results flagged for a closer look

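In 24 named probe sets the 9 controls were searched for an array far from the rest, which chance gives in about 1 of 20 groups. Xl.3534.1.A1_at had such an array, with a gap of 0.515 of the control range.

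Direct tests between interventions differed for 12 named probe sets (limma, adjusted p under 0.05, over all probe sets). Of all probe sets, 0.181% were called higher and 0.0259% lower than in Cerberus-Short embryos. Against Sox17-MO embryos these shares were 0.641% and 0.123%. The named probe sets were chosen for their Mixer-MO values, which enter these tests, so the 12 are a description. With the title letter as a fixed term, or on the arrays of the 2 groups alone, both comparisons gave 0 calls. In log2 units, Mixer-MO minus Cerberus-Short was -1.22 for Xl.1627.1.A1_at, 1.85 for Xl.7749.1.A1_at, 2.11 for Xl.13297.1.S1_at, 1.89 for Xl.1044.1.S1_at, -2.38 for Xl.13110.1.A1_at and 3.76 for Xl.373.1.S1_at. Mixer-MO minus Sox17-MO was -2.04 for Xl.6024.1.S1_at, 2.22 for Xl.7749.1.A1_at, 1.68 for Xl.13297.1.S1_at, 1.42 for Xl.14862.1.A1_at, -1.33 for Xl.14404.1.A1_at and 1.69 for Xl.1044.1.S1_at. It was -2.28 for Xl.13110.1.A1_at, 1.71 for Xl.378.1.S1_at, -1.37 for Xl.3975.1.A1_at and 1.72 for Xl.7766.1.A1_at. The last of these belongs to the cap set, with 85.1 and 122 in Mixer-MO embryos, against a control range of 43.0 to 113.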

How the results depend on the processing

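Without each array in turn, Mixer-MO against control gave 0 to 20 calls. There were 0 when Mixer-MO replicate 1 was left out, 2 when replicate 2 was, and 20 when the J control, replicate 7, was. Leaving out both arrays of the J pair, chosen after seeing the data, gave 2. With the letter of the titles as a fixed block there were 0 calls (76 at an unadjusted p under 0.05), where the J pair alone bears on the contrast, with the titles without a letter joined 5 (2 higher and 3 lower), and with it as a random block 8. On the 11 arrays alone there were 0 (1203 unadjusted), and with a pseudocount of 16 there were 10. With the replicate number as a block there were 0 (2639 unadjusted), on 1 residual degree of freedom, where only numbers 1 and 2 are shared. Over the 24 named probe sets no difference changed sign. For most of them both Mixer-MO arrays lay outside the control range, so leaving out an array could not reverse the sign. Of the named probe sets not called, 12 passed the threshold in some alternative. The remaining alternatives were all added after the data were seen. Mixer-MO against Cerberus-Short gave 18 calls instead of 32 with quantile normalization, 0 with the title letter as fixed (also with the titles without a letter joined) and 0 on the arrays of the 2 groups alone, and 2 to 171 without each array in turn. With a pseudocount of 16 the probe sets 2-fold lower in both pairs were 24 instead of 49 and those higher 5 instead of 10, and 5 were higher with the dimmest 40% left out. The vegetal median ran from 0.0724 to 0.537 and the cap median from -0.728 to 0.0244 without each array in turn. Without Mixer-MO replicate 2 they were 0.0724 and 0.0244, where the cap median reversed. Without Mixer-MO replicate 1 they were 0.537 and -0.728. Without the J pair the cap median was -0.0396. No background level was read, so the size of a fold at low intensity is uncertain.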
